A study of Mus musculus with 6 samples.

Results

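Mast cells are tissue-resident immune cells that lie in the dermis near vessels and nerves, and their granules hold serine and metalloproteases packed on heparin chains. Cross-linking of IgE on the high-affinity IgE receptor releases the granules, and the receptor tyrosine kinase KIT, bound by stem cell factor, keeps the cells alive. Mast cells of connective tissue such as skin are known for chymases, tryptases and carboxypeptidase A, whereas those of mucosa make other chymases.

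The genes examined were 8 genes listed by name for mast cells, out of 33184 genes in the deposited table. There were 5 granule protease genes, Cpa3, Cma1, Mcpt4, Tpsb2 and Tpsab1, and 3 surface receptor genes, Kit, Fcer1a and Ms4a2. Each of the 8 was in the table, was above 0 in every library and averaged 0.5 FPKM or more over the 6 libraries, the level needed to be tested. FPKM stands for fragments per kilobase of gene, but here the reads of a pair were counted singly. Values are divided by gene length, so levels of different genes can be compared on them, and are scaled to the reads assigned to genes in the library. RNA-seq analysis was done on wound tissues of db/db mice, a diabetic line that lacks a working leptin receptor, and every library of both groups carried that genotype. Full-thickness dorsal skin wounds received subcutaneous injections around the wound of NC siRNA, a control, or of SFRP2 siRNAs at dpi1 (1 day post-injury), and the tissue was collected at dpi4. By their labels, 3 libraries were NC and 3 were SFRP2-siRNA. The sample titles carry D3, the ages of the mice were not given, and no undiabetic mice were analysed here. The treated titles carry siRNA numbers that also name 3 different SFRP2 siRNAs in the supplement, so a difference between siRNAs and one between samples cannot be told apart. Nothing in the labels says that the libraries of a group came from separate animals, so p-values measure only the spread between these samples.

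Read totals recovered from the FPKM values were 42.9 M to 47.1 M (M, mega). Sfrp2, the target of the siRNAs, was not lower in the treated group: it had 11.6, 40.6 and 14.1 FPKM in NC 1, 2 and 3 against 50.6, 54.6 and 55.2 FPKM in those labelled SFRP2-siRNA 1, 2 and 3. The groups did not overlap (exact permutation p = 0.1, the smallest that 3 against 3 libraries allow), so every direction given here is between the libraries as labelled. The library labelled SFRP2-siRNA 1 stood apart in its tissue makeup, with a summed level of 4 hair follicle genes of 19.6 FPKM against 2035 to 4446 FPKM in the other libraries. Over all 16005 genes tested, log2 fold changes had a median of 0.125, so values relative to that shift are also given.

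The DNA just before the transcription start was read for the members, because GATA factors are known to act on mast cell genes. RefSeq windows of 250 bases upstream (GRCm38.p6) matched 6 of the 8 genes, and Tpsb2 and Tpsab1 had no entry. A GATA motif was searched on both strands as the letters AGATAA or TGATAA, and other forms of it were not searched. A match was found in 4 of the 6 windows and in 16.6% of the 32851 promoters of the same length. An E-box was likewise searched only as CACGTG or CACATG, and was found in 1 of the 6 windows and in 17.6% of all promoters. No match of one motif overlapped a match of the other. Below are the windows of 2 proteases with a match, the protease without these letters, and the genes of both specific IgE receptor chains. Each window runs 5′ to 3′ on the gene's own strand and ends at the base before the start, with motif matches in capitals.
Cpa3, chr3:20242182-20242431, minus strand: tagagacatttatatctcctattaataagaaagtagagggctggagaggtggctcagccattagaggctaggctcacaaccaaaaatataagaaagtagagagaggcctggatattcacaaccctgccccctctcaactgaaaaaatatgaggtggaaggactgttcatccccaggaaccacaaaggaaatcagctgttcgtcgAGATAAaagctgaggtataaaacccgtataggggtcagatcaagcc
Mcpt4, chr14:56062311-56062560, minus strand: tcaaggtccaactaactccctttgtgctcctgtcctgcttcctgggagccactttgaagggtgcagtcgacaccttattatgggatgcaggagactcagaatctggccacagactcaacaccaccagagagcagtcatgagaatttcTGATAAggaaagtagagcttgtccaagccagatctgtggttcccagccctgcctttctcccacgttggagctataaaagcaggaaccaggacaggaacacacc
Cma1, chr14:55944676-55944925, minus strand: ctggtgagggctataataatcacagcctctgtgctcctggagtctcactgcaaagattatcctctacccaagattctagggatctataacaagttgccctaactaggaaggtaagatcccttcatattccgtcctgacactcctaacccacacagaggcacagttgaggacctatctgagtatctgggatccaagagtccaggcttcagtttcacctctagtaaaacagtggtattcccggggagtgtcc
Fcer1a, chr1:173227230-173227479, minus strand: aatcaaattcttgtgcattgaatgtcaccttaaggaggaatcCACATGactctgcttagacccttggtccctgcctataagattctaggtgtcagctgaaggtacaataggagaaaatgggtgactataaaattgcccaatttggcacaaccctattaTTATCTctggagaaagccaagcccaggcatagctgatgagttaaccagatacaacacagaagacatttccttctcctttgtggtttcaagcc
Ms4a2, chr19:11623720-11623969, minus strand: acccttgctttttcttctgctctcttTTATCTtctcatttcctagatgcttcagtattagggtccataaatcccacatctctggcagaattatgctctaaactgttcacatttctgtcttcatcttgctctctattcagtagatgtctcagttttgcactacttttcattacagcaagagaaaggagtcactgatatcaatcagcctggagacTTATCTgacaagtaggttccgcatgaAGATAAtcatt
The GATA letters began 46 bases before the start in Cpa3, 103 in Mcpt4 and 92 in Fcer1a. Ms4a2 had 3 matches, at 224, 37 and 11 bases before the start. The E-box of Fcer1a began 208 bases before the start. Kit, on the plus strand of chromosome 5 (75574737 to 75574986), held no match to the letters searched. These matches describe the letters of the windows, and factor binding was not measured.

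The granule protease genes were higher on average in the libraries labelled SFRP2-siRNA, by a log2 fold change of 0.56 to 0.75 on the log2(FPKM + 1) scale. For 4 of the 5 the groups did not overlap, and for Cpa3 they did. Of all genes tested, 13.9% were higher without overlap, or 5.27% under median-of-ratios scaling. The summed level of the 5 proteases was 93.1, 102.6 and 106.3 FPKM in NC 1, 2 and 3 and 199.0, 168.7 and 137.6 FPKM in SFRP2-siRNA 1, 2 and 3. In a bulk sample more cells of a type and more RNA per cell cannot be told apart. Of the 3 receptor genes, Fcer1a was higher without overlap, whereas Kit and Ms4a2 overlapped. No member passed the threshold of an adjusted p under 0.05 together with a log2 fold change beyond 1 in size, and no gene of the 16005 tested did (0% called, limma with Benjamini-Hochberg adjustment). The smallest adjusted p of all genes was 0.518.

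Cma1 (ENSMUSG00000022225) encodes an alpha-chymase of connective tissue mast cells and was the most abundant of the 8. It had 33.5, 41.9 and 41.1 FPKM in NC 1, 2 and 3 and 77.2, 66.1 and 54.7 FPKM in SFRP2-siRNA 1, 2 and 3. Every library labelled SFRP2-siRNA was above every NC library, and SFRP2-siRNA 1 was the highest. Mean levels were 38.8 ± 4.63 and 66.0 ± 11.3 FPKM (SD over 3 libraries each), which gave a log2 fold change of 0.74 (SE 0.18, 95% interval 0.31 to 1.18). Before adjustment the limma p was 0.00507, after it 0.518, and the exact permutation p was 0.1.

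Mcpt4 (ENSMUSG00000061068) encodes a beta-chymase, which cleaves matrix proteins and peptides outside the cell. Its NC libraries lay close together at 27.8, 29.1 and 29.3 FPKM, and the libraries labelled SFRP2-siRNA had 62.8, 49.2 and 38.2 FPKM. The treated libraries were all above the controls but spread far more widely, with an SD of 12.3 FPKM around a mean of 50.04 against 0.815 around 28.7 (n = 3 each). The log2 fold change was 0.75 (SE 0.20, 95% interval 0.28 to 1.22; limma adjusted p = 0.518, exact permutation p = 0.1).

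Cpa3 (ENSMUSG00000001865) encodes mast cell carboxypeptidase A, a metalloprotease that trims peptides in the granule. It had 11.6, 14.1 and 16.3 FPKM in NC 1, 2 and 3 and 27.0, 25.9 and 16.0 FPKM in SFRP2-siRNA 1, 2 and 3. The first 2 treated libraries were above all controls, and SFRP2-siRNA 3 lay just under NC 3. Mean levels were 14.0 ± 2.35 and 23.0 ± 6.07 FPKM (SD over 3 libraries each), which gave a log2 fold change of 0.65 (SE 0.23, 95% interval 0.099 to 1.21; limma adjusted p = 0.518). The exact permutation p was 0.2.

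Tpsb2 (ENSMUSG00000033825) encodes a tryptase that is stored as a tetramer on heparin. It had 18.7, 15.8 and 17.6 FPKM in NC 1, 2 and 3 and 28.1, 24.4 and 25.7 FPKM in SFRP2-siRNA 1, 2 and 3. It was the protease whose treated libraries lay closest together relative to their mean, at 26.1 ± 1.90 FPKM against 17.3 ± 1.46 in NC (SD, n = 3 each). The groups did not overlap, with a log2 fold change of 0.56 (SE 0.13, 95% interval 0.25 to 0.88; limma adjusted p = 0.518, exact permutation p = 0.1).

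Tpsab1 (ENSMUSG00000024173), a neighbouring tryptase gene, is listed as a transcribed pseudogene by RefSeq. It was far less abundant, with 1.57, 1.74 and 2.01 FPKM in NC 1, 2 and 3 and 3.90, 3.18 and 3.0 FPKM in SFRP2-siRNA 1, 2 and 3. All treated libraries were above all controls, with means of 1.77 ± 0.22 and 3.36 ± 0.48 FPKM (SD, n = 3 each). The log2 fold change was 0.65 (SE 0.13, 95% interval 0.34 to 0.97; limma adjusted p = 0.518, exact permutation p = 0.1). Of the windows of 50 bases in its exons, 0% were found in another gene, and the same was true of Tpsb2. Cma1 shared 5.38% of its windows with Gm48934 and Mcpt4 shared 5.48% of its own with Cma2 or Mcpt9, so a small part of their reads could belong to those copies.

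**Figure D1:**
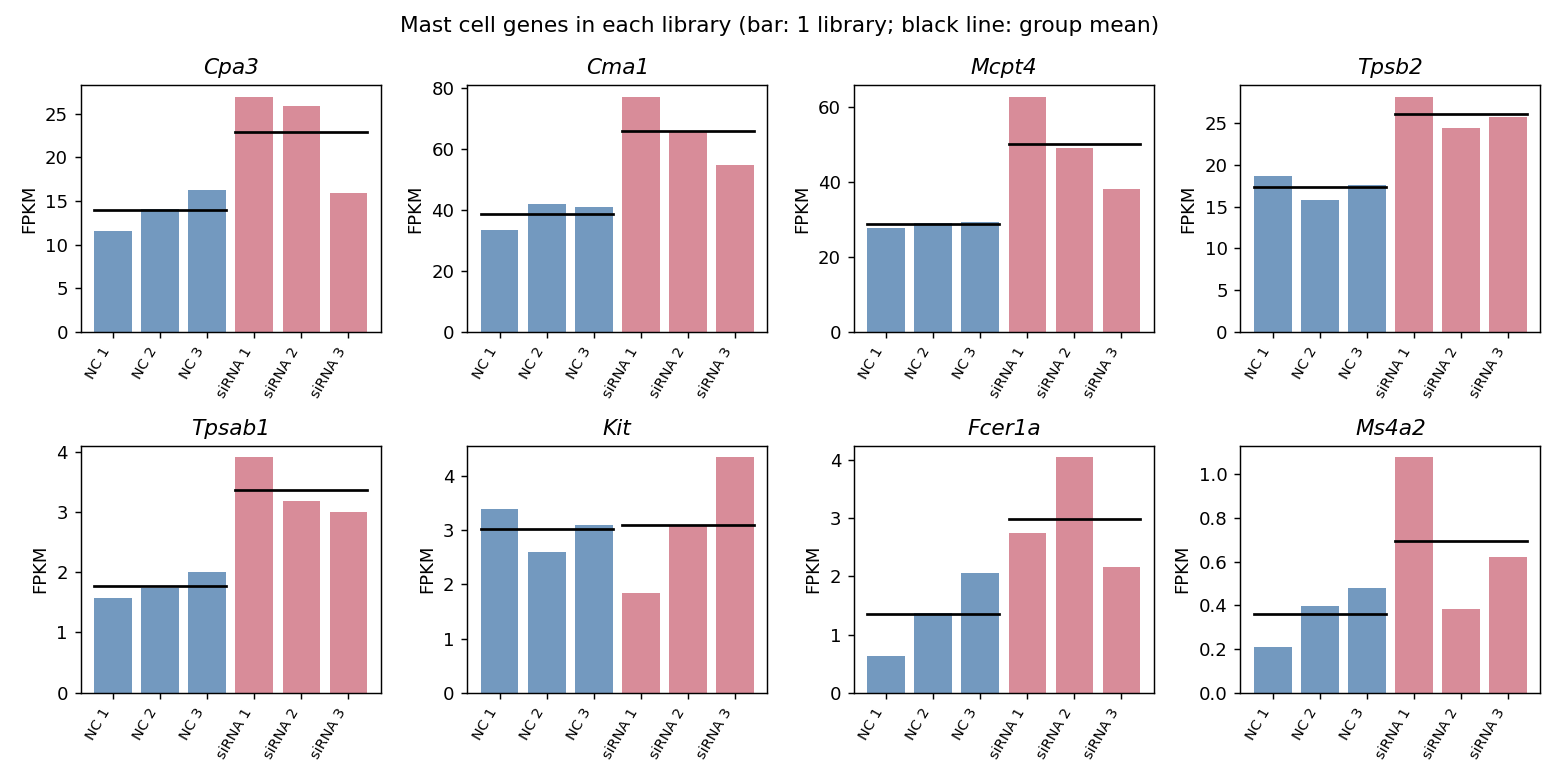
FPKM of each of the 8 mast cell genes (y axis, linear and starting at 0, a scale of its own for each gene) in each of the 6 libraries (x axis); bars are single libraries and black lines group means. For Cma1, Mcpt4, Tpsb2, Tpsab1 and Fcer1a every bar labelled siRNA is above every NC bar, whereas Kit ranges from 1.85 to 4.35 FPKM within the libraries labelled SFRP2-siRNA alone.

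Kit (ENSMUSG00000005672) encodes the receptor of stem cell factor and is also known in melanocytes. It had 3.39, 2.59 and 3.10 FPKM in NC 1, 2 and 3 and 1.85, 3.08 and 4.35 FPKM in SFRP2-siRNA 1, 2 and 3. The treated libraries held both the lowest and the highest of the 6 values, and the lowest was SFRP2-siRNA 1, the library in which all 5 proteases were highest. Mean levels were 3.03 ± 0.40 and 3.09 ± 1.25 FPKM (SD, n = 3 each), with a log2 fold change of -0.02 (SE 0.24, 95% interval -0.58 to 0.54; limma adjusted p = 0.971, exact permutation p = 0.9). The sign depended on the libraries used, since the log2 fold change was 0.22 without SFRP2-siRNA 1 and -0.24 without SFRP2-siRNA 3. The summed level of 6 melanocyte genes was 125.4, 26.4 and 90.0 FPKM in NC 1, 2 and 3 and 5.95, 105.5 and 218.3 FPKM in SFRP2-siRNA 1, 2 and 3. It was thus lowest and highest in the same libraries as Kit. Its part in the Kit values was not tested.

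Fcer1a (ENSMUSG00000005339) encodes the IgE-binding alpha chain of the high-affinity IgE receptor. It had 0.64, 1.37 and 2.06 FPKM in NC 1, 2 and 3 and 2.75, 4.05 and 2.17 FPKM in SFRP2-siRNA 1, 2 and 3, from 28 to 183 reads. The groups did not overlap, but NC 3 and SFRP2-siRNA 3 lay close together and NC 1 was far below the rest. Mean levels were 1.35 ± 0.71 and 2.99 ± 0.96 FPKM (SD over 3 libraries each), which gave a log2 fold change of 0.78 (SE 0.27, 95% interval 0.14 to 1.42; limma adjusted p = 0.518, exact permutation p = 0.1). At this level the log2 fold change depended on the pseudocount, and it was 1.18 with a pseudocount of 0.1.

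Ms4a2 (ENSMUSG00000024680) encodes the beta chain of the same receptor, which amplifies its signal. It had 0.21, 0.39 and 0.48 FPKM in NC 1, 2 and 3 and 1.08, 0.38 and 0.62 FPKM in SFRP2-siRNA 1, 2 and 3, from 26 to 130 reads. SFRP2-siRNA 1 was the highest, whereas SFRP2-siRNA 2 lay below NC 2 and NC 3. Mean levels were 0.36 ± 0.14 and 0.69 ± 0.35 FPKM (SD over 3 libraries each), which gave a log2 fold change of 0.30 (SE 0.17, 95% interval -0.12 to 0.71; limma adjusted p = 0.544, exact permutation p = 0.3). Its NC mean was under the filter of 0.5 FPKM, so it was tested through its level in the treated libraries. Without SFRP2-siRNA 1 the log2 fold change was 0.14. The IgE receptor chains thus did not keep a fixed ratio, with Ms4a2 at 0.095 of Fcer1a in SFRP2-siRNA 2 and at 0.39 in SFRP2-siRNA 1.

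Of the 8 members, 5 were higher without overlap in the libraries labelled SFRP2-siRNA, where 13.9% of all genes tested were. None was lower without overlap, where 3.92% of all genes were. Under median-of-ratios scaling, which centres the genes near 0, 4 of the 8 were higher without overlap, against 5.27% of all genes. An unadjusted limma p under 0.05 in the higher direction was seen for 6 of the 8, against 6.72% of all genes tested. The members were chosen with earlier results of these data known and were measured in the same libraries. These counts are therefore a description and not a test. The median log2 fold change of the 8 was 0.65, against 0.125 for all genes. Relative to that shift the proteases stood at 0.44 to 0.63, Fcer1a at 0.66, Ms4a2 at 0.17 and Kit at -0.14. Among all genes tested, 2.06% had a higher log2 fold change than Mcpt4, 5.44% than Tpsb2 and 74.2% than Kit.

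**Figure D2:**
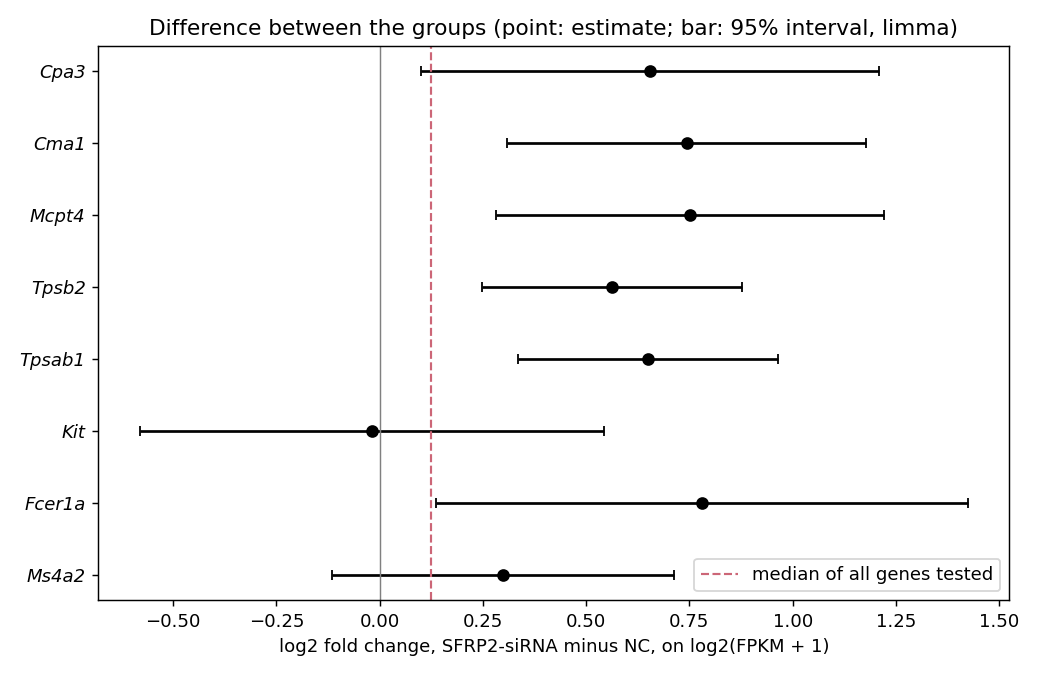
Log2 fold change of each mast cell gene, SFRP2-siRNA minus NC, on the log2(FPKM + 1) scale (x axis); points are limma estimates from 3 libraries a group and bars their 95% intervals. The intervals of the 5 proteases and Fcer1a lie above 0, those of Kit and Ms4a2 span it, and the dashed line marks the median of all genes tested, 0.125.

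The summed levels of fibroblast and macrophage genes were also higher without overlap, whereas those of neutrophil, melanocyte, adipocyte, skeletal muscle, keratinocyte and hair follicle genes overlapped between the groups. No gene of these lists passed the adjusted threshold. The summed level of 5 fibroblast genes was 703 to 1549 FPKM in NC and 1720 to 1788 FPKM in libraries labelled SFRP2-siRNA, and 4 of the 5 genes were higher without overlap, against 13.9% of all genes. That of 5 macrophage genes was 573 to 1053 FPKM in NC and 1195 to 1611 FPKM in the treated libraries. Of the 5 genes 1, Lyz2, was higher without overlap, a share near that of all genes. Lyz2 made up most of the macrophage sum, at 409 to 796 FPKM in NC and 941 to 1227 FPKM in the treated libraries. Ptprc, the pan-leukocyte CD45 gene, had 1.94, 4.98 and 2.39 FPKM in NC and 7.995, 6.26 and 3.68 FPKM in libraries labelled SFRP2-siRNA, so that NC 2 lay above SFRP2-siRNA 3. In 4 pairs of a protease with Dcn or Ptprc, ratios within a library, which no scaling changes, showed no separation of the groups. The ratio of Cma1 to the fibroblast proteoglycan gene Dcn, a pair chosen after the values were seen, was 0.462, 0.415 and 0.438 in NC and 0.496, 0.434 and 0.395 in the treated libraries, with means of 0.438 ± 0.023 and 0.442 ± 0.051 (SD, n = 3 each). The ratio of Cpa3 to Ptprc, also chosen afterwards, was 5.201 ± 2.10 in NC and 3.95 ± 0.51 in the treated libraries (SD, n = 3 each) and overlapped. The mean log2(FPKM + 1) of the proteases, less that of the fibroblast list, differed between the groups by -0.17, less that of the macrophage list by -0.09 and less Ptprc by -0.11. Less the neutrophil list it differed by 0.08 and less the melanocyte list by 0.79, and all 5 of these differences overlapped. The adipocyte, keratinocyte, skeletal muscle and hair follicle lists were not subtracted in this way. Their own mean log2(FPKM + 1) differed between the groups by -0.48, -0.21, 0.70 and -2.13, beside 0.67 for the proteases. The overlap above therefore does not extend to every tissue list. The part of the tissue makeup in the protease values was not tested.

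Genes of related granulocytes were low beside the proteases. The summed level of 3 basophil genes, Mcpt8, Prss34 and Cd200r3, was 0.70 to 2.05 FPKM over the 6 libraries, and 2 of the 3 were under 0.5 FPKM in every library. The summed level of 5 eosinophil genes was 0.79 to 1.09 FPKM, with 4 of the 5 under 0.5 FPKM throughout. Both sums overlapped between the groups. Mcpt8 had means of 0.95 ± 0.64 in NC and 0.73 ± 0.62 FPKM in the treated libraries (SD, n = 3 each). These were above the means of Ms4a2 (0.36 and 0.69 FPKM) and below those of Fcer1a (1.35 and 2.99 FPKM). The part of basophils in the Fcer1a and Ms4a2 values was not tested.

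Ordered by mean level over the 6 libraries, the members ran Cma1 (52.4 FPKM), Mcpt4 (39.4), Tpsb2 (21.7), Cpa3 (18.5), Kit (3.06), Tpsab1 (2.57), Fcer1a (2.17) and Ms4a2 (0.53). Cma1 was above Mcpt4, Mcpt4 above Tpsb2, Cpa3 above Kit and Fcer1a above Ms4a2 in all 6 libraries. Tpsb2 was above Cpa3 in 5 of 6. The order of Kit, Tpsab1 and Fcer1a was not fixed, as Kit was above Tpsab1 and Tpsab1 above Fcer1a in 4 of 6 libraries each. These levels rested on 1610 to 3613 reads a library for Cma1, 1359 to 2985 for Mcpt4, 1178 to 1932 for Tpsb2, 776 to 1782 for Cpa3, 706 to 1825 for Kit and 145 to 351 for Tpsab1.

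The chymases kept similar proportions in the libraries. The ratio of Cma1 to Mcpt4 was 1.204 to 1.44 in all, with means of 1.35 ± 0.13 in NC and 1.34 ± 0.10 in the treated libraries (SD, n = 3 each). Cma1 was 2.52 to 3.42 times the level of Cpa3, and Mcpt4 was 1.80 to 2.40 times that level. The ratio of Tpsb2 to Cpa3 ran more widely, from 0.94 to 1.61, and overlapped between the groups. The ratio of Tpsb2 to Tpsab1 was 11.9, 9.05 and 8.75 in NC and 7.20, 7.66 and 8.57 in the libraries labelled SFRP2-siRNA. All treated libraries were below all controls, though NC 3 and SFRP2-siRNA 3 were close. Among all the ratios computed it was the only one without overlap, and it was not tested. For 3 against 3 libraries the smallest exact permutation p is 0.1. The ratio of Kit to Cpa3 varied from 0.068 in SFRP2-siRNA 1 to 0.292 in NC 1, and overlapped between the groups.

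The likeness of each gene to the proteases was measured as the root mean square difference between its log2(FPKM + 1) values, centred on its mean over the 6 libraries, and the mean centred profile of the 5 proteases. Tpsab1 (0.063), Cma1 (0.072) and Mcpt4 (0.087) were nearer to that profile than any of the 14017 other genes averaging 1 FPKM or more, but they are part of it. Cpa3 was at 0.142 and Tpsb2 at 0.161. Fcer1a at 0.283, Ms4a2 at 0.239 and Kit at 0.540 were not used for the profile. Of the other genes, 19.8% were nearer to it than Fcer1a, 7.93% than Ms4a2 and 85.0% than Kit. A gene with the same level in all libraries would stand at 0.367. The 10 nearest other genes were Dmxl2, Arl4c, Mest, Tinf2, Plagl1, Mir5107, Dnase1l1, Alas2, Lix1l and Entpd3, at 0.101 to 0.120. Dmxl2, at the head, had 1.51, 2.03 and 1.94 FPKM in NC and 4.20, 3.38 and 2.22 FPKM in the treated libraries. The fibroblast gene Dcn, at 0.143, was about as near as Cpa3. With 6 libraries these places are a description, and between 0 and 4 of the 10 genes were still among the 10 nearest when 1 library was left out.

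**Figure D3:**
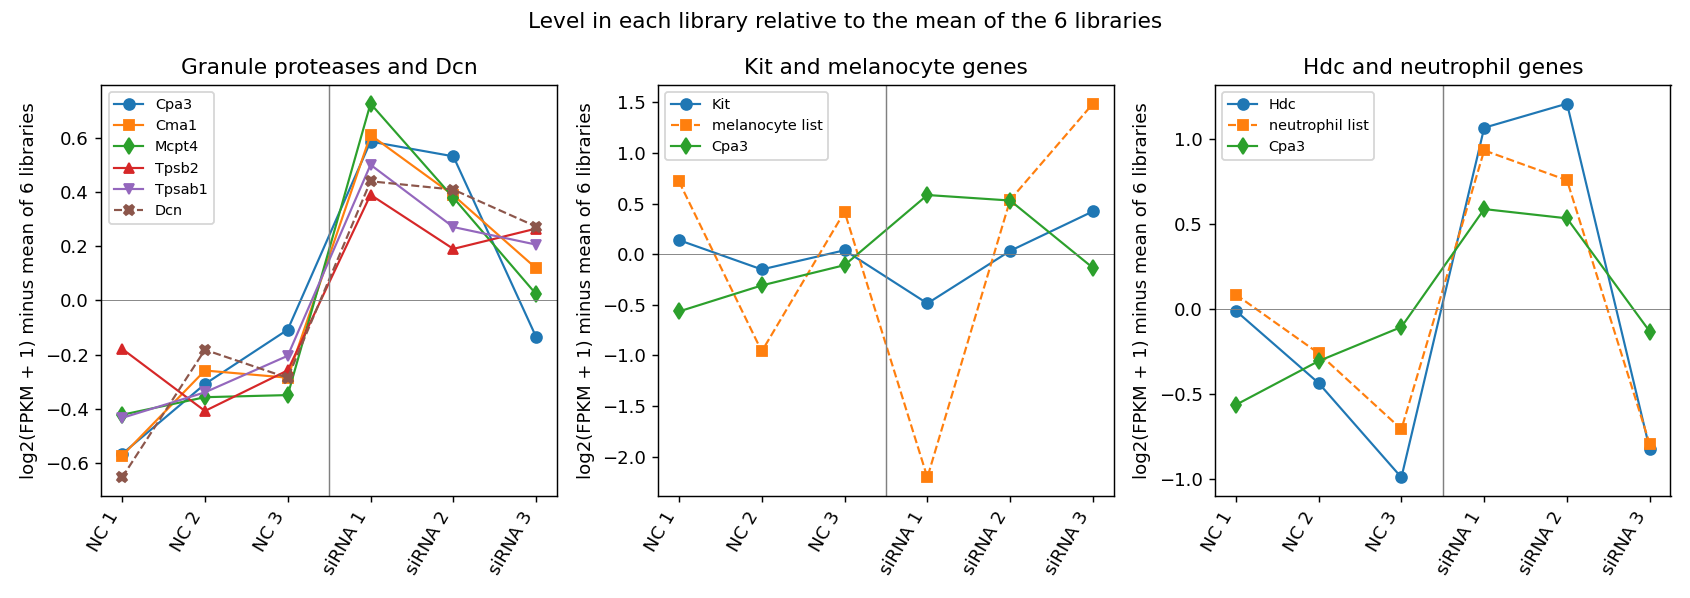
Level in each library (x axis) as log2(FPKM + 1) minus its mean over the 6 libraries (y axis), for the proteases with Dcn, for Kit with the mean of 6 melanocyte genes, and for Hdc with the mean of 7 neutrophil genes; Cpa3 is repeated in each panel, each of which has its own y scale. The proteases and Dcn sit below 0 in every NC library, and Cpa3 is also below 0 in SFRP2-siRNA 3. Kit and the melanocyte genes are lowest in SFRP2-siRNA 1 and highest in SFRP2-siRNA 3. Hdc and the neutrophil genes are highest in SFRP2-siRNA 1 and 2.

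Among other genes of mast cell granules, 2 of the 6 tested were higher without overlap, against 13.9% of all genes, Mcpt2 and Ndst2, and the median log2 fold change was 0.55. Mcpt2, a chymase known from mucosal mast cells, had 45.9, 34.3 and 40.7 FPKM in NC and 92.4, 76.8 and 48.1 FPKM in libraries labelled SFRP2-siRNA. Its log2 fold change was 0.79 (SE 0.26; limma adjusted p = 0.518, exact permutation p = 0.1), and it stood at 1.18 to 1.65 times the level of Mcpt4. Srgn, the serglycin core protein of granules in many blood cells, had 105.2, 66.6 and 40.5 FPKM in NC and 171.1, 163.6 and 49.2 FPKM in the treated libraries, with overlap. Ndst2, an enzyme of heparin sulfation, had means of 8.55 ± 1.57 and 10.9 ± 0.24 FPKM (SD, n = 3 each). Ctsg, cathepsin G, overlapped between the groups, with means of 1.68 ± 0.35 and 2.81 ± 0.74 FPKM (SD, n = 3 each).

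Of the 7 tested genes of mediator synthesis and storage, 3 were higher without overlap (13.9% of all genes were), Slc18a2, Alox5ap and Ptgs1, with a median log2 fold change of 0.60 over the list. Alox5ap, which presents arachidonic acid to 5-lipoxygenase, had 31.2, 25.6 and 17.1 FPKM in NC and 47.4, 43.0 and 32.0 FPKM in the treated libraries. Hdc, which makes histamine, had 18.3, 13.4 and 8.80 FPKM in NC and 39.7, 43.9 and 9.98 FPKM in SFRP2-siRNA 1, 2 and 3. It was high in the first 2 treated libraries and low in the third of them. The summed level of 7 neutrophil genes was 1763, 1680 and 1136 FPKM in NC and 4597, 5521 and 981 FPKM in the treated libraries, and its part in the Hdc values was not tested. Ltc4s, the leukotriene C4 synthase, had means of 9.57 ± 3.30 in NC and 7.14 ± 0.88 FPKM in the treated libraries (SD, n = 3 each) and overlapped. Ptgs1, a prostaglandin synthase, had means of 6.75 ± 0.83 and 9.56 ± 2.52 FPKM (SD, n = 3 each).

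In IgE receptor signalling, 3 of 12 genes were higher without overlap (13.9% of all genes were), Syk, Lat2 and Btk, and the median log2 fold change was 0.51. Fcer1g, the gamma chain shared with other Fc receptors, was much more abundant than Fcer1a and Ms4a2. It had 166.8, 176.9 and 98.0 FPKM in NC and 289.5, 242.8 and 160.3 FPKM in the treated libraries, with overlap. Syk, the kinase recruited by that chain, had 7.42, 10.2 and 7.11 FPKM in NC and 17.2, 17.8 and 10.3 FPKM in libraries labelled SFRP2-siRNA, where the lowest treated library was just above the highest control. Lyn, a kinase acting before it, had means of 12.5 ± 4.71 and 20.1 ± 8.09 FPKM (SD, n = 3 each) and overlapped. Plcg1, a phospholipase, was at 16.0 ± 2.46 and 15.8 ± 1.77 FPKM (SD, n = 3 each). For comparison, the median log2 fold change was 0.80 over the macrophage list, and the log2 fold change of Ptprc was 0.79. The part of other leukocytes in the values of this list and of Alox5ap was not tested.

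Of 4 tested genes of other mast cell receptors, Mrgprb1 and Il1rl1 were higher without overlap, beside 13.9% of all genes, and the median log2 fold change was 0.35. Il1rl1, the receptor of interleukin-33, had 2.35, 3.37 and 1.41 FPKM in NC and 3.82, 3.42 and 5.68 FPKM in the treated libraries. Mrgprb2, a receptor for basic peptides, had 0.65, 0.57 and 0.78 FPKM in NC and 1.36, 0.72 and 1.30 FPKM in the treated libraries, so that SFRP2-siRNA 2 lay among the controls. Mrgprb1, a related receptor, had means of 0.56 ± 0.20 and 1.00 ± 0.20 FPKM (SD, n = 3 each). Il3ra, an interleukin-3 receptor chain, had means of 5.67 ± 0.81 and 6.77 ± 0.69 FPKM (SD, n = 3 each) and overlapped.

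For the transcription factors that act in mast cells, all 5 tested overlapped between the groups and the median log2 fold change was 0.068. Gata2 had means of 1.31 ± 0.27 in NC and 1.39 ± 0.47 FPKM in the treated libraries, and Mitf of 3.90 ± 1.12 and 4.65 ± 1.30 FPKM (SD, n = 3 each). Stat5b had means of 9.10 ± 1.83 and 11.6 ± 0.90 FPKM, and Stat5a of 5.14 ± 0.89 and 5.27 ± 1.77 FPKM (SD, n = 3 each). None of these 4 separated the groups.

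Among the growth factors and cytokines that act on mast cells, 3 of 6 tested were higher without overlap, against 13.9% of all genes, Kitl, Il10 and Tslp, with a median log2 fold change of 0.40. Kitl, which encodes stem cell factor, the ligand of KIT, had 5.28, 6.42 and 5.88 FPKM in NC and 7.15, 6.68 and 8.14 FPKM in the treated libraries (log2 fold change 0.28, SE 0.13, limma adjusted p = 0.523). Tslp, an epithelial cytokine, had 1.67, 1.65 and 2.13 FPKM in NC and 12.1, 3.20 and 3.32 FPKM in the treated libraries. Its difference in means thus rested largely on SFRP2-siRNA 1, though all 3 treated libraries were above the controls. Il33, an alarmin, had 13.05, 32.1 and 12.8 FPKM in NC and 42.3, 40.4 and 16.8 FPKM in the treated libraries, with overlap. In none of these lists was a tested gene lower without overlap, and none passed the adjusted threshold.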

How the data were processed

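Transcript levels were measured by paired-end RNA-seq in 6 libraries, grouped by their titles as 3 NC and 3 SFRP2-siRNA. The authors deposited FPKM values for 33184 Ensembl gene IDs, of which 32582 matched a symbol. The submitters' processing notes name HISAT2, Subread and featureCounts, and the genome build is not given in the sources used here. FPKM steps gave whole reads for 96.6% of genes at GENCODE vM21 lengths, and for the other 1143 genes at another length (tolerance 0.05 reads). At least 62.4% of values of 1 to 20 reads were even, so mates were counted singly and reads are not independent. Libraries of a group differed far beyond sampling noise, with a chi-square per degree of freedom of at least 92.1.

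Values were analysed as log2(FPKM + 1), which understates the change of low genes, with limma 3.58.1 (intensity trend, two-sided) in R 4.3.3. Benjamini-Hochberg adjustment ran over the 16005 genes that averaged 0.5 FPKM or more. Single genes were also compared by two-sided exact permutation tests. The authors used DESeq2 with the same thresholds, but FPKM values fit no count model. The alternatives were limma voom on the recovered reads, another pseudocount, other filters, scalings, no trend, sample weights, a replicate block and leaving out each library. Scaling to reads outside the mitochondrial genome was chosen after seeing the data. The genes named were the 8 members, Sfrp2, the 4 of highest mean FPKM in each mast cell list and the 10 genes nearest the proteases. List genes outside these that are named for not overlapping, Dcn and Ptprc were chosen after their values were seen. The members and lists were chosen with earlier results of these data known. The values of 1 listed gene are not reported here. Protein sequences were not used here.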

Additional observations from a re-analysis of the deposited data

How the results depend on the processing

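No gene was called in any of the 16 alternatives, and the counts at an unadjusted p under 0.05 were 1533 in limma and 1536 in limma voom. The log2 fold changes of the 5 proteases, Fcer1a and Ms4a2 kept their direction in every alternative that gave a value, over 0.50 to 0.89 for Cpa3, 0.58 to 0.87 for Cma1, 0.58 to 0.93 for Mcpt4, 0.40 to 0.65 for Tpsb2, 0.54 to 0.91 for Tpsab1, 0.54 to 1.23 for Fcer1a and 0.06 to 0.88 for Ms4a2. Relative to the median of all genes, Ms4a2 stood at -0.03 with sample weights. A filter of 2 FPKM left Ms4a2 out. The planned quasi-likelihood count test is not reported, since the files give no counts. Kit turned positive after rescaling to equal sums (0.052) and with sample weights (0.083), and ranged from -0.24 to 0.22 when 1 library was left out, and the cause was not tested. The median of the members was 0.52 under median-of-ratios scaling, which moved the median of all genes to 0.00, and 0.54 to 0.79 when 1 library was left out. Of the 10 genes nearest the proteases, 4 were retained with a pseudocount of 0.1 and 0 to 4 when 1 library was left out.

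The labels do not say whether the replicate numbers pair the samples. Same-numbered libraries deviated together with correlations of -0.05, -0.15 and 0.38. Of the 3 numbers only number 3 was the best match of its own libraries. So few correlations cannot settle whether the samples were paired. With a replicate block 0 genes were called, and 5 of the 8 members, against 6, had an unadjusted p under 0.05.

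With 3 libraries a group the exact test cannot reach 0.05. Fcer1a and Ms4a2 rested on 28 to 183 and 26 to 130 reads a library.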
